A study of Mus musculus with 32 samples.

Results

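The homeobox genes described here pattern the head, limbs, gut and nervous system of the embryo and lie outside the Hox, Pax, sine oculis, LIM and Nkx families. They number 32 of the 21887 protein-coding genes examined and were taken by name: En1, En2, Otx1, Otx2, Gbx1 and Gbx2 of the midbrain and hindbrain; Emx1, Emx2, Gsx1 and Gsx2 of the forebrain; Dlx1 to Dlx6; Irx1 to Irx6; Msx1, Msx2, Alx1 and Alx4 of the limb, skull and face; Barhl1, Barhl2, Evx1 and Evx2 of the spinal cord and sense organs; and Cdx1 and Cdx2 of the gut and posterior body. For each gene and library, the value was the percent of the gene plus 5 kb on each side that lay inside peaks. These regions ran from 12.3 to 48.9 kb with a median of 15.9 kb. The regions of Dlx1 and Dlx2 overlapped, as did those of Dlx5 and Dlx6, and 10 of the regions reached into that of a gene outside the group, such as that of Evx2 into Hoxd13.

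Homeobox genes encode transcription factors that bind DNA through a shared fold, the homeodomain, and each is switched on in a restricted part of the embryo. In other cells they are held silent by the Polycomb system, in which PRC2 trimethylates a lysine of histone H3 (the mark H3K27me3) and PRC1 attaches ubiquitin to a lysine of histone H2A (H2AK119ub). Asxl1 is a partner of Bap1, the enzyme that takes this ubiquitin off again, and H3K4me1 marks enhancers and the flanks of active promoters.

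The cells were mouse bone marrow progenitors immortalised with an estrogen-dependent HoxB8, grown in SCF-conditioned medium and, in every group, sampled 48 h after estrogen was removed. The question put by the design was how truncation of Asxl1 by CRISPR, overexpression of the activating receptor mutant CSF3R T618I and both together altered the 3 marks, read by CUT&Tag, in which an antibody-guided transposase releases the DNA beside a mark. For each mark there were 2 control libraries (non-targeting guide with the empty pMICH vector), 3 with the Asxl1 guide B2 in the same vector background, 3 that paired the non-targeting guide with pMICH-CSF3R-T618I, and 2 that combined guide B2 with CSF3R T618I, called double below. A single Asxl1 guide was used, and the labels do not say that libraries came from separate cultures, so the p-values measure the spread between these libraries, which may be technical.

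The length of genome covered by peaks differed between libraries. For H3K27me3 it was 15.9 and 22.7 Mb in the controls, 4.73, 53 and 12.4 Mb with the Asxl1 guide (replicates 1 to 3), 31.3 to 42.2 Mb with CSF3R T618I, and 19.2 and 14.2 Mb in double cells. Replicates 1 and 2 of the Asxl1 guide held the smallest and the largest H3K27me3 extent of all 10 libraries. For H2AK119ub it was 19.9 to 21.2 Mb, 11.8 to 16.7 Mb, 18.8 to 28.7 Mb and 22.6 to 39.1 Mb in the same order of groups. The files give peak positions with no height or read number, so sequencing depth is unknown and its part in these differences was not tested. Peaks of the merged IgG control covered at most 6.6% of a region, at Emx2, and none of it for 16 of the 32 genes. All 14 genes of a list of myeloid progenitor and neutrophil markers had an H3K4me1 peak in at least 1 library, and 11 in all 10. Spi1, Cebpa, Mpo and Elane were among 10 of the 14 with no H3K27me3 peak in any. Other lists had H3K4me1 peaks too, at 5 of 6 monocyte and macrophage, 3 of 7 lymphoid and 4 of 6 erythroid and megakaryocyte markers. Mast cell markers had them at 3 of 5 and stromal markers at 2 of 5. H3K27me3 peaks lay at 3 of 6, 4 of 7, 3 of 6, 1 of 5 and 3 of 5 in the same order.

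The DNA just upstream of these genes is shown first for 6 whose Polycomb marks differed most in kind. Emx2 and Irx3 had their annotated start inside a peak of both Polycomb marks in 10 of 10 libraries. En1 had its start in an H3K27me3 peak in 9 libraries and in an H2AK119ub peak in 1. Msx2, Evx1 and Otx2 had theirs in an H3K27me3 peak in 10, 7 and 6 libraries and in an H2AK119ub peak in 0. The sequences are the 250 bases before the start, 5′ to 3′ on the gene's strand, from RefSeq on GRCm38.p6, whose coordinates are those of mm10. Capitals mark CpG, the dinucleotide CG, which reads the same on both strands.
Emx2, chr19:59458440-59458689, plus strand: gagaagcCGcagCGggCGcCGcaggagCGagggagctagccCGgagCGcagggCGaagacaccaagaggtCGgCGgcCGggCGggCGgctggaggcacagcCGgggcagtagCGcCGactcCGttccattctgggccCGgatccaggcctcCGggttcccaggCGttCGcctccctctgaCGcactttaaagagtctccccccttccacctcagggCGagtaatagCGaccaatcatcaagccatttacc
Irx3, chr8:91801655-91801904, minus strand: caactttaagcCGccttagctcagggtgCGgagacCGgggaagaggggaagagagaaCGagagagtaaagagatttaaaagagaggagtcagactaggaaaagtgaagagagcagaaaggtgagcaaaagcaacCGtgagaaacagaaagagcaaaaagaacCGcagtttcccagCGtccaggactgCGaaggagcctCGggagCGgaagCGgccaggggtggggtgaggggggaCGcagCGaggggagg
En1, chr1:120602237-120602486, plus strand: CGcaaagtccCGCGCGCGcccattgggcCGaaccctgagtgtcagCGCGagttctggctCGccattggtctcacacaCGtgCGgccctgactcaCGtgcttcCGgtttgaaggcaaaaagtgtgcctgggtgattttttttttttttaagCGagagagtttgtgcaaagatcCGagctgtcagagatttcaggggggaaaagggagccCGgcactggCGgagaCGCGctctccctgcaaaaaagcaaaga
Msx2, chr13:53472781-53473030, minus strand: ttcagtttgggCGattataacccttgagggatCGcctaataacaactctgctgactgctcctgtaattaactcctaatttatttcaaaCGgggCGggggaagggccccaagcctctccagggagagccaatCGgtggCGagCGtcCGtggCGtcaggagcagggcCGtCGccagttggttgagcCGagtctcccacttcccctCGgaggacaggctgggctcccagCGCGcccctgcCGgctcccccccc
Evx1, chr6:52313248-52313497, plus strand: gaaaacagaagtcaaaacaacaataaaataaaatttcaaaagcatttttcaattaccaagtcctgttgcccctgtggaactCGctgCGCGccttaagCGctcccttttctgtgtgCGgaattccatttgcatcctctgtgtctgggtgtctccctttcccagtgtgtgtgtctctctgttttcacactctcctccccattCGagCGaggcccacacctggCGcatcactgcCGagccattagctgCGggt
Otx2, chr14:48667645-48667894, minus strand: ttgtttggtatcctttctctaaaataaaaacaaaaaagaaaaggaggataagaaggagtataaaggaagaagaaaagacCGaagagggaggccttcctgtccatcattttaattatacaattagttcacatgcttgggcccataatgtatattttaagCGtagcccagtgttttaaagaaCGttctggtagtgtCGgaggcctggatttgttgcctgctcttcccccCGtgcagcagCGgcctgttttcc
RefSeq starts were given for 19 of the 32 genes. The median upstream stretch of these 19 held 18 CpG, against 10 over 17492 protein-coding genes and 12 over 1221 genes with enough H3K27me3 to be tested. At least 10 CpG were present in 17 of the 19, or 89.5%, against 50.4% and 60.2% of the 2 larger sets. The 8 genes whose start lay in H2AK119ub in every library (Gbx2, Emx1, Emx2, Gsx1, Dlx1, Dlx2, Irx3 and Cdx2) held 13 to 30 CpG. Of the 3 with the start in no H2AK119ub peak, Otx2 held 6, Evx1 held 10 and Msx2 held 16. The CpG counts of the 2 sets thus overlapped at Msx2.

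H3K27me3 lay over 30 of the 32 genes in every library and over Barhl1 and Cdx1 in 9 of 10, while H2AK119ub was spread unevenly among them and H3K4me1 was nearly absent. In control cells the median gene had 64.4% of its region in H3K27me3 peaks, and 23 of 32 had at least 50%. The same median was 49.8% over 39 Hox genes, 45.3% over 41 Pax, sine oculis, LIM and Nkx genes and 20.2% over 22 genes of patterning signals such as Wnt and Fgf ligands. For H2AK119ub the control median was 29.9%, with 10 of 32 genes at or above 50%. Of the H2AK119ub-covered bases in these regions a median of 95.4% lay inside H3K27me3 in control cells, over 4 pairs of libraries, while 52.1% of H3K27me3 bases lay inside H2AK119ub.

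**Figure D1:**
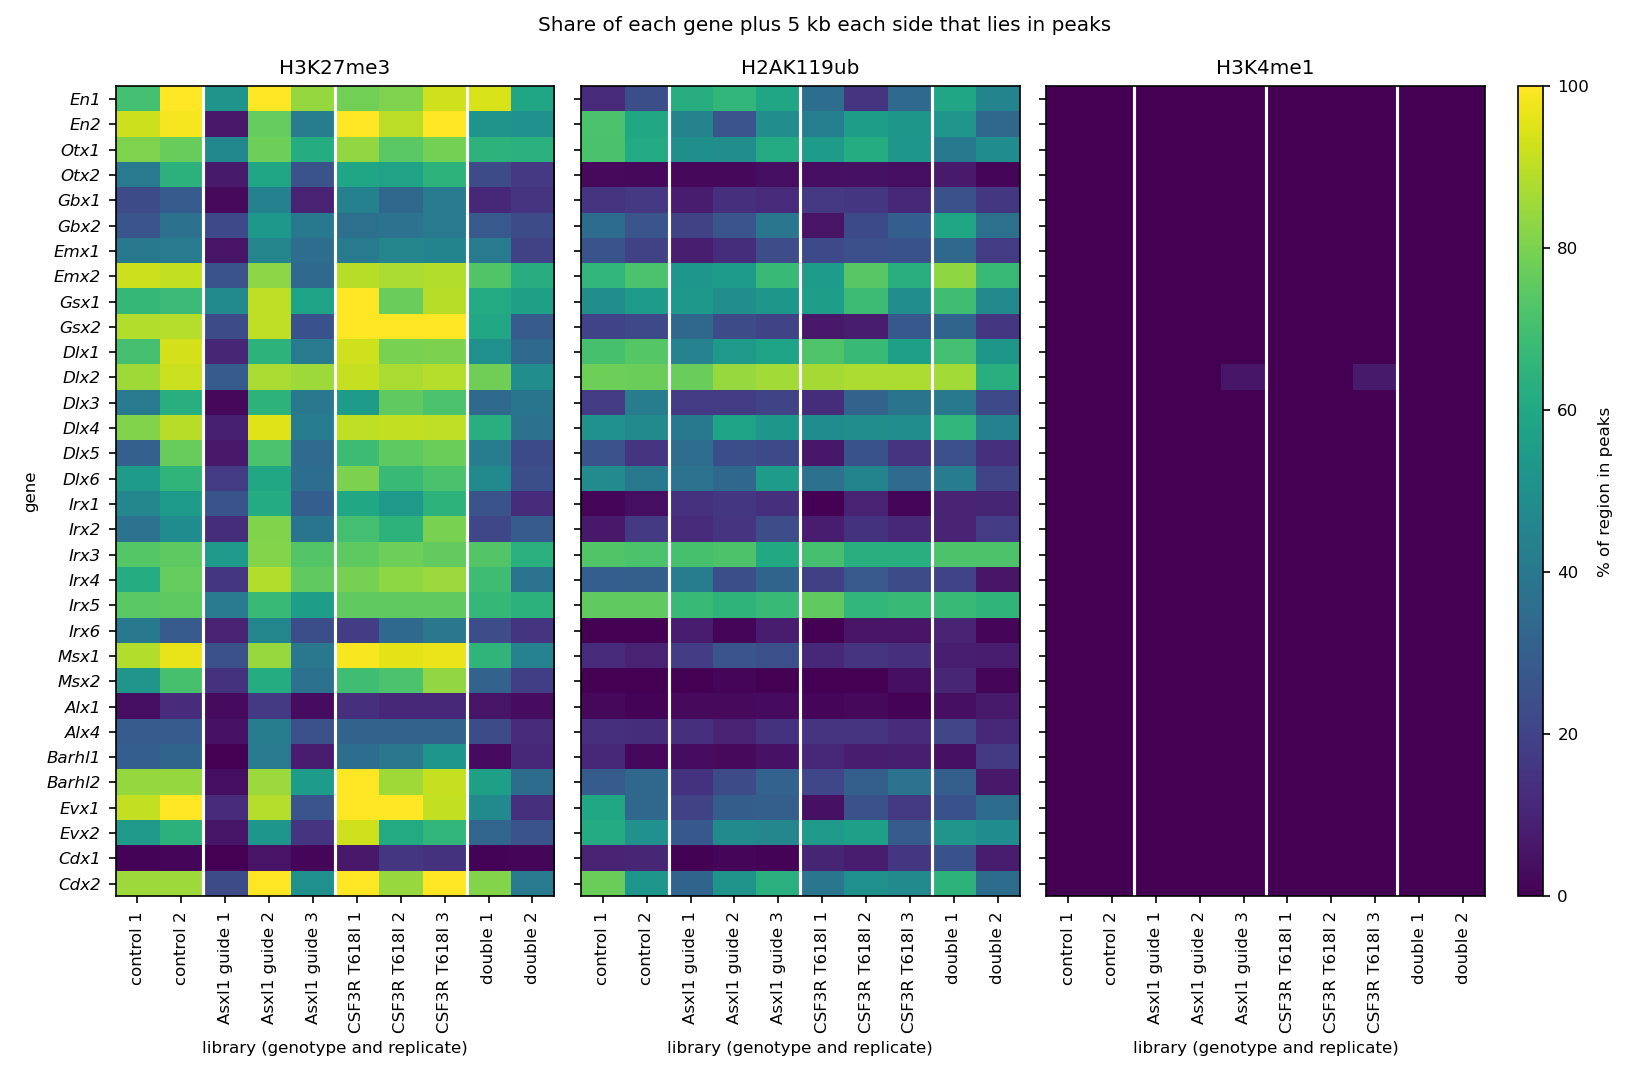
Percent of each gene's region (gene plus 5 kb on each side) inside peaks, for 32 genes (rows, by role) and the 10 libraries of each mark (columns, by genotype and replicate), on a colour scale from 0 to 100%. H3K27me3 dims in replicates 1 and 3 of the Asxl1 guide and in the double cells, H2AK119ub is bright in a fixed set of genes such as Dlx2, Irx3 and Irx5, and H3K4me1 appears at Dlx2 alone.

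Among single genes, En1, a homeodomain repressor of the midbrain-hindbrain boundary and ventral limb, had the highest mean H3K27me3 coverage over the 10 libraries, 81.1%. Its values were 70.1 and 100% in control cells, 51.9, 100 and 84.2% with the Asxl1 guide, 78.8, 80.7 and 92.6% with CSF3R T618I and 93.9 and 59.3% in double cells. No library fell below 51.9% at En1, and its 4 groups overlapped. Dlx2, which with Dlx1 drives forebrain interneuron formation, came next with a mean of 77.4%. It read 85.8 and 91.8%, then 29.2, 87.3 and 85.4%, then 91.4, 87.3 and 88.8%, then 78.3 and 49.1% in the same order of groups. A single library of the Asxl1 guide, replicate 1, stood far below the rest.

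The lowest H3K27me3 coverage was at Cdx1, a gut and posterior-body regulator, with a mean of 4.94%. It read 1.06 and 1.79% in control cells, 0, 5.08 and 1.79% with the Asxl1 guide, 6.91, 15.9 and 14.6% with CSF3R T618I and 0.874 and 1.42% in double cells. All 3 CSF3R T618I libraries lay above the other 7. Alx1, a craniofacial gene, averaged 8.47%. It read 3.63 and 12.5%, 3, 16.9 and 3.15%, 14, 11.2 and 11.2%, and 5.84 and 3.31% in the same order. These were the 2 genes of the 32 that did not reach 20% in 2 libraries and so were not tested for H3K27me3. Their close relatives carried more of the mark: Cdx2, required for the trophoblast and the intestine, had 85.3% in both controls, and Alx4 had 29.2 and 28.2%.

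H2AK119ub was highest at Dlx2, with a mean of 81.5% over the 10 libraries. Its values were 78 and 77.6% in control cells, 77.2, 84.7 and 86.2% with the Asxl1 guide, 86.6, 87.7 and 87.7% with CSF3R T618I and 86.2 and 63% in double cells. No library fell below 60%. Irx5, an Iroquois gene of heart and retina next to Irx3, averaged 69.3%. It read 75.4% in both controls, 67.4, 65.2 and 67.4% with the guide, 75.4, 66.3 and 67.4% with CSF3R T618I and 67.8 and 65.6% in double cells, so that both controls lay above every library with the guide. Irx3, its neighbour, stayed between 60.9 and 72.7% in all 10 libraries.

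At the other end, Msx2, a target of BMP signals in limb and skull, averaged 1.81% H2AK119ub. It was at 0 in both controls, at 0, 1.89 and 0% with the Asxl1 guide, at 0, 0 and 4.09% with CSF3R T618I and at 10.8 and 1.26% in double cells. Alx1 read 2.05 and 0.946%, 2.52, 2.52 and 2.84%, 1.58, 2.21 and 1.1%, and 4.26 and 7.1% in the same order. A set of 10 of the 32 genes, among them Otx2, Gbx1, Irx1, Irx2 and Irx6, stayed too low in H2AK119ub to be tested although 8 of these 10 were tested for H3K27me3. The level needed for a test split the Iroquois family: Irx3, Irx4 and Irx5 were tested for both marks, and Irx1, Irx2 and Irx6 for H3K27me3 alone. Irx4 and Irx2 were not cleanly apart in H2AK119ub, with 5.24 to 41.9% and 6.81 to 23.8% over the 10 libraries. The start of Irx2 lay in an H2AK119ub peak in 7 libraries and that of Irx4 in 2.

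H3K27me3 was densest at the starts and spread beyond them. For the 19 genes with a given start, the bases within 500 bp of it were in an H3K27me3 peak for 91.2 and 95.9% in control cells and for 95.9 to 99.5% with CSF3R T618I. In double cells the same share was 61.6 and 63.5%. At 9 to 10 kb from the start it was 34.5 and 45.8% in controls, 47.8 to 53% with CSF3R T618I and 32.8 and 19.6% in double cells. The libraries of the Asxl1 guide gave 47.6, 96.9 and 78.5% at the start, spanning both. H2AK119ub within 500 bp was 50.5 and 61.6% in controls, 59.8 to 66.5% with the guide, 54.1 to 61.6% with CSF3R T618I and 61.1 and 61.6% in double cells, and these groups overlapped.

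**Figure D2:**
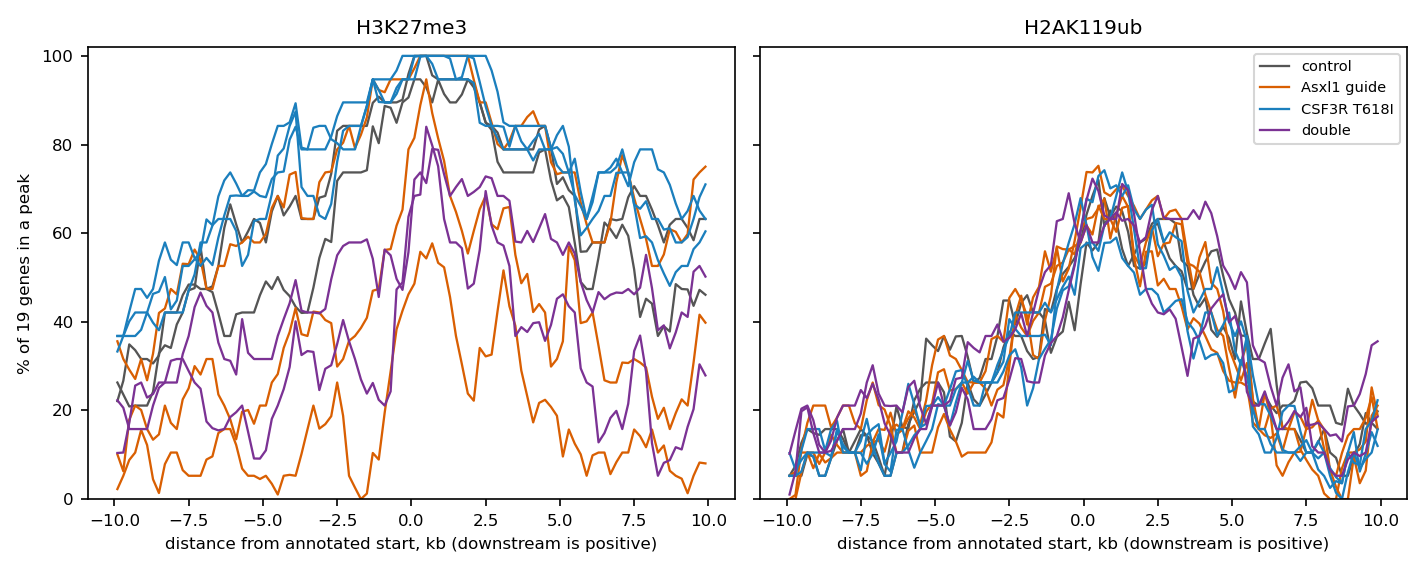
Percent of the 19 genes with a RefSeq start whose DNA at each distance from that start (kb, downstream positive) lay in an H3K27me3 (left) or H2AK119ub (right) peak, 1 line per library, coloured by genotype. The H3K27me3 lines of double cells run below those of CSF3R T618I across the start, whereas the H2AK119ub lines of the 4 genotypes cross each other.

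The individual H3K27me3 domains were also shorter in double cells than in control and CSF3R T618I cells, as were H3K27me3 peaks over the whole genome. The mean width of all peaks was 1563 and 1590 bp in control and 780, 1168 and 972 bp with the Asxl1 guide. It was 2051, 1797 and 1865 bp with CSF3R T618I and 1134 and 766 bp in double cells. The values that follow are for the 32 regions. The median over genes of the longest peak touching the region was 9.76 kb ± 1.61 (SD, n = 2) in control, 5.03 kb ± 4.61 (SD, n = 3) with the Asxl1 guide, 12.6 kb ± 2.2 (SD, n = 3) with CSF3R T618I and 4.42 kb ± 1.93 (SD, n = 2) in double cells. The double libraries lay below those of control and CSF3R T618I, and the guide libraries overlapped with all groups but CSF3R T618I. The number of peaks, summed over the 32 regions, was 62 to 74 in control and 56 to 68 with CSF3R T618I. It was 80 to 97 with the Asxl1 guide and 92 to 105 in double cells, which overlap. A peak that touched 2 regions was counted in each. Against control and CSF3R T618I, double cells thus had less covered length divided among more peaks. At Evx1 the longest peak measured 21.4, 21.4 and 17.2 kb with CSF3R T618I and 7.1 and 1.25 kb in double cells. At Irx3 it measured 11.5, 12.2 and 11.5 kb against 10.4 and 5.05 kb.

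Among the comparisons run, H3K27me3 calls at these genes came from the Asxl1 guide on top of CSF3R T618I. Double cells had less H3K27me3 coverage than CSF3R T618I cells at all 32 genes by the mean. The median difference was -32.2 percentage points of the region against -19.7 over the 1673 genes tested. The starting levels differed: medians with CSF3R T618I were 75.4 to 78.2% over the 32 genes and 31.7 to 39.4% over genes tested. In double cells they were 47.5 and 29% against 17.8 and 12.8%. Points alone therefore do not give the loss relative to the start. Msx2, Irx1, Evx1 and Evx2 fell at an adjusted p under 0.05 (limma moderated test, 2-sided, Benjamini-Hochberg over the 1673 genes), 4 of the 30 tested, and none rose. Over all genes tested, 17% were called lower, and at an unadjusted p under 0.05 there were 16 of the 30 against 48.3%. In 29 of the 32, every double library lay below every CSF3R T618I library, against 88.8% of tested genes, and the exceptions were En1, Emx1 and Irx6. Fewer cells with the mark and less mark per cell cannot be told apart in these bulk profiles.

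Msx2 read 69.3, 71.5 and 83.8% with CSF3R T618I and 31.9 and 18.7% in double cells. The groups were well apart, and the difference was -49.6 points ± 12.3 (SE), with an adjusted p of 0.0335 by limma. Irx1, an Iroquois gene of heart, lung and nervous system, read 59.7, 54.2 and 64.7% against 25.5 and 12.6%, a difference of -40.5 points ± 10.3 (SE) with an adjusted p of 0.0367 by limma. At both genes the double libraries also lay below the controls, which read 52 and 70.9% for Msx2 and 46.2 and 54.4% for Irx1. With the Asxl1 guide alone Msx2 read 14.8, 61.8 and 37.2% and Irx1 25.8, 61.5 and 30%. These guide libraries overlapped with the controls at both genes and with the double libraries at Msx2.

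Evx1 and Evx2 specify spinal interneurons, and the region of Evx2 overlapped that of Hoxd13. Evx1 was covered almost completely with CSF3R T618I, 100, 100 and 90.9%, and read 47.7 and 13.8% in double cells. The difference of -66.3 points ± 18.7 (SE) was the largest of the 32, with an adjusted p of 0.0422 by limma. Evx1 controls stood at 90.7 and 100%, and the libraries of the guide alone at 12.4, 88.9 and 26.5%, all below the controls. Evx2 read 92.7, 61.1 and 66% with CSF3R T618I and 32.8 and 25.4% in double cells, a difference of -44.2 points ± 13.5 (SE) with an adjusted p of 0.0492 by limma. Its controls were 54.1 and 64.1% and its guide-only libraries 6.21, 52.7 and 15.1%, again all below the controls.

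These 4 calls changed with the libraries and settings used, and the cause was not tested. They were kept without replicate 1 or replicate 2 of the Asxl1 guide, when 20 and 21 of the 30 genes fell, and were lost when any 1 of the other 8 libraries was left out. Of all genes tested, 43.5% were called lower without replicate 1 and 79.6% without replicate 2. Fitted on the CSF3R T618I and double libraries alone, 26 of the 30 fell, against 74.1% of tested genes. With the covered length of each library as a covariate 12 fell, against 35.6%. With genes kept at 10% coverage 2 of 32 fell, against 13.1%, with no filter 0 of 32, against 5.59%, and with the replicate number as a block 0 of 30, against 1.08%. Of 20 alternatives each, Msx2 and Irx1 lost the call in 10, Evx1 in 11 and Evx2 in 14.

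**Figure D3:**
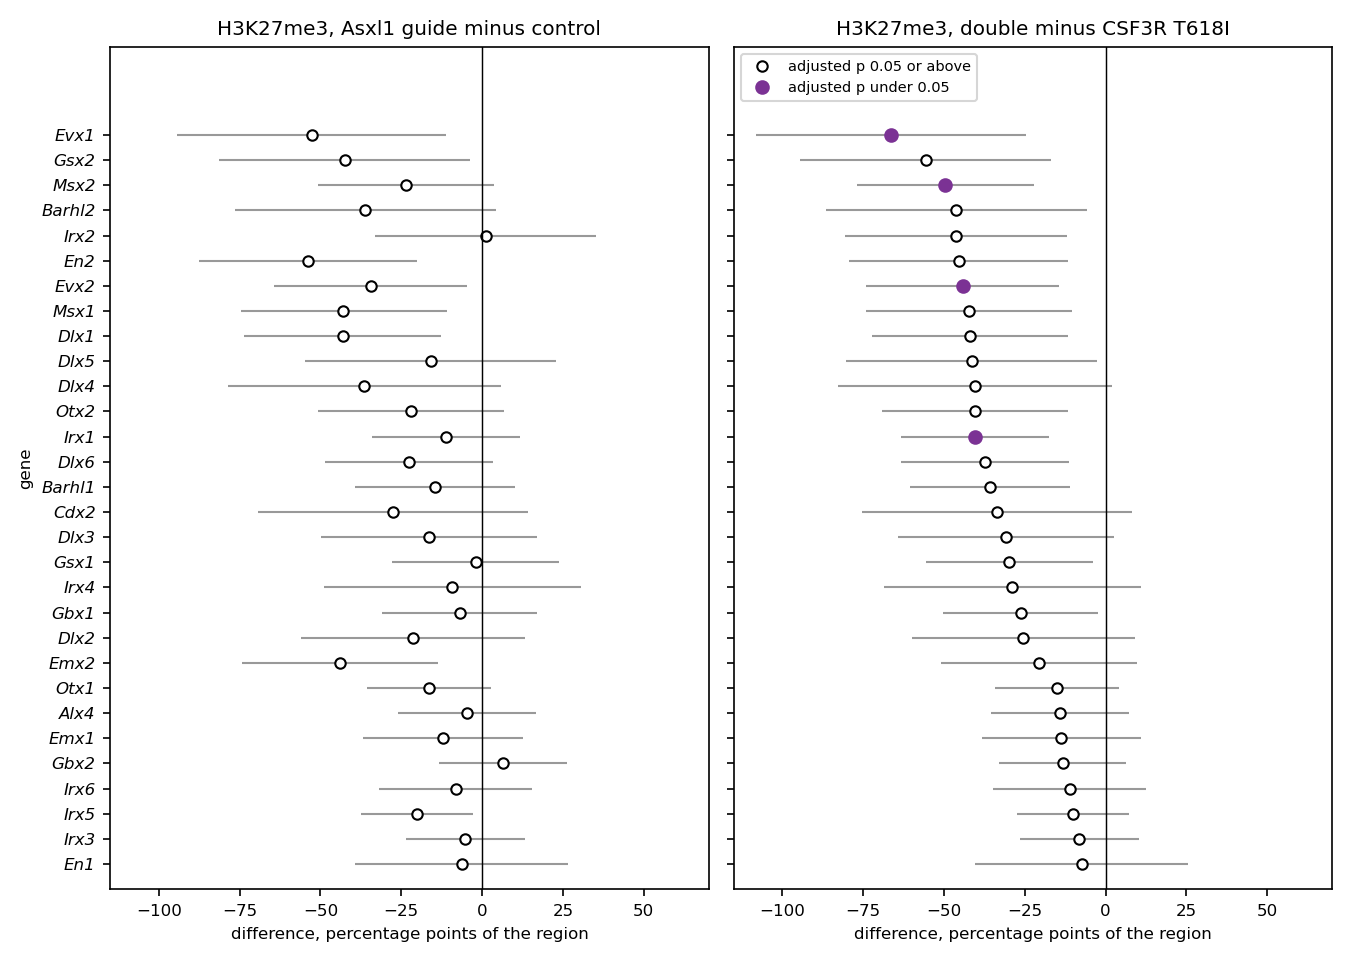
H3K27me3 differences in percentage points of the region (points) with 95% confidence intervals from limma (lines) for the 30 tested genes, ordered by the difference between double and CSF3R T618I cells (right), beside the Asxl1 guide against control (left). Filled points mark Msx2, Irx1, Evx1 and Evx2, and on the right all 30 points lie below 0.

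The differences by family were as follows, their ranges overlapped, and no test between families was run. In the midbrain and hindbrain group the differences ran from -45.5 points at En2 through -40.5 at Otx2 to -7.39 at En1, with Otx1 at -15, Gbx1 at -26.3 and Gbx2 at -13.3. In the forebrain group Gsx2, a ventral telencephalon gene, went from 100% in all 3 CSF3R T618I libraries to 59.7 and 28.9% in double cells, with an adjusted p of 0.0505 by limma. Emx2, a cortex and urogenital gene, moved less, from 87.4 to 89.2% to 73 and 62.4%. The Dlx genes, which pattern jaw, limb and forebrain, lay between -25.5 points at Dlx2 and -42 at Dlx1. Of the Iroquois genes Irx2 showed -46.3 points, while Irx3 and Irx5 showed -8.18 and -10.1. Except for the 4 called genes, none of these passed the threshold.

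Expressed as the share of the CSF3R T618I mean that remained in double cells, H3K27me3 over the 30 tested genes ran from 16.4% at Barhl1, a gene of cerebellum and inner ear, to 91.2% at En1. This share tended to be larger where H2AK119ub covered more of the region, with overlap between the sets below. The 8 genes with at least 50% H2AK119ub in CSF3R T618I cells (En2, Otx1, Emx2, Gsx1, Dlx1, Dlx2, Irx3 and Irx5) kept 50.2 to 89.3% of H3K27me3, with a median of 74.1%. Of the tested genes, the 13 with under 20% kept 16.4 to 65.5%, with a median of 35.2%. Alx1, at 1.63% H2AK119ub and 37.7% kept, and Cdx1, at 11.2% and 9.22%, were not tested for H3K27me3 and are left out of both sets. Over the 30 tested genes, which share libraries, Pearson's r was 0.62 and Spearman's rho 0.63, given as a description chosen after these values were seen. The same relation of control H2AK119ub to the share of H3K27me3 left with the guide alone had r = -0.13 and rho = -0.13. The guide libraries behind it differed in H3K27me3 extent from 4.73 to 53 Mb, and a difference between the 2 relations was not tested. Neither relation is given over all genes tested, so a trait particular to these genes is not shown. En1 stood apart, with 28.5% H2AK119ub and 91.2% of H3K27me3 kept.

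**Figure D4:**
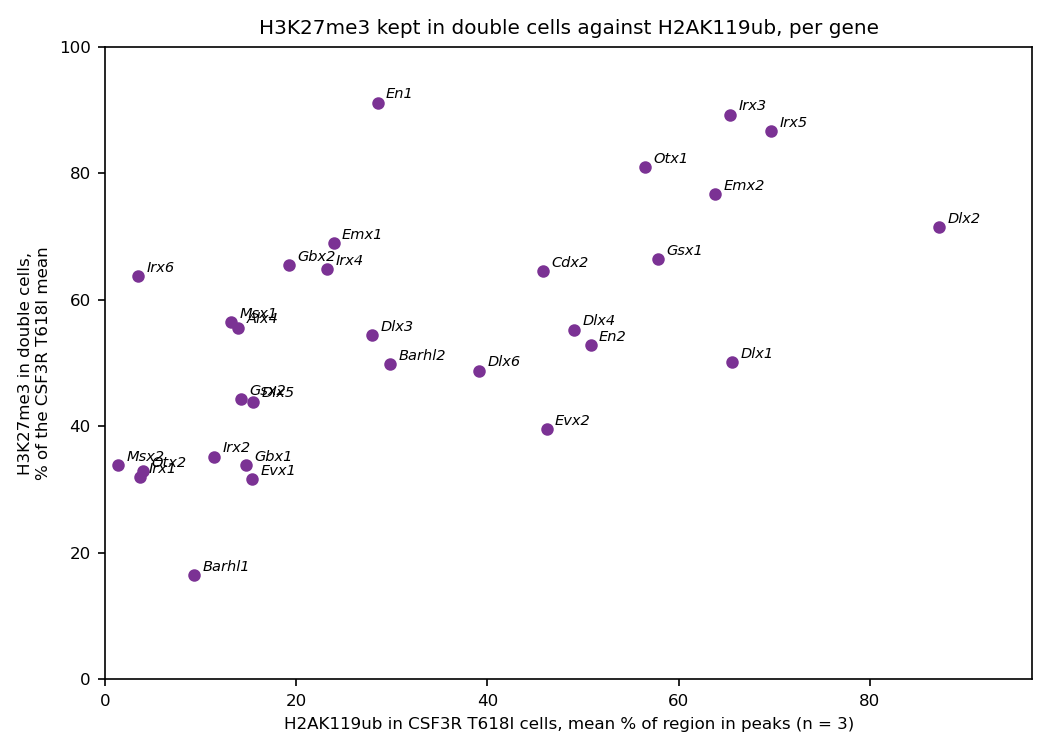
Each point is 1 of 30 genes: the x axis gives the mean percent of its region in H2AK119ub peaks in CSF3R T618I cells (n = 3), the y axis the mean H3K27me3 coverage of double cells (n = 2) as a percent of the CSF3R T618I mean (n = 3). Genes with over 50% H2AK119ub lie above 50% on the y axis, with Dlx1 and En2 just above it at 50.2 and 52.9%. Genes with less H2AK119ub lie on both sides of that level. Barhl1, Evx1, Irx1, Msx2 and Otx2 lie at the lower left, Irx6 (3.4% H2AK119ub, 63.7% kept) and Msx1 (13.2%, 56.5%) higher, and En1 at the top.

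The Asxl1 guide alone gave no call in H3K27me3. The median difference from control was -16.4 points over the 32 genes and -4.18 points over all genes tested, and 29 of the 32 means lay lower. The 2 controls started at medians of 58.5 and 73% over the 32 genes and 17.3 and 23.8% over genes tested. None of 30 passed by limma, and 0% of the 1673 genes did; 8 of the 30 and 5.86% of all genes had an unadjusted p under 0.05. In En2, Emx2, Dlx1, Irx5, Msx1, Evx1 and Evx2, 7 of the 32, all 3 guide libraries lay below both controls, against 8.73% of tested genes. En2 had the smallest p: its controls were at 92.2 and 98.8% and its guide libraries at 6.97, 76.4 and 41.8%. The difference of -53.8 points ± 15.3 (SE) had an adjusted p of 0.542 by limma. Emx2 came next, with 92.2 and 90.7% in control and 25.5, 82.6 and 34.3% with the guide, -44 points ± 13.7 (SE) and an adjusted p of 0.675 by limma. At both genes replicate 2 lay nearest the controls and replicate 1 farthest from them.

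The count changed with this library. Without replicate 2 of the Asxl1 guide, 18 of the 30 genes fell, against 26.6% of all genes tested, and with covered length as a covariate 9 did, against 7.11%. With both steps together 2 did, against 1.22%. Dlx1, En2, Msx1, Gsx2, Evx1, Irx5, Dlx4, Msx2 and Emx2 made up the 9.

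CSF3R T618I alone gave no H3K27me3 call either. The median difference from control was 7.15 points, against 13.5 over all genes tested, and none of the 30 passed by limma, against 0% of tested genes. The number with an unadjusted p under 0.05 was 0 of 30, against 21.4%. In 13 of the 32 all CSF3R T618I libraries lay above both controls, against 73.7% of tested genes, and in 1, Emx2, all lay below, against 0.179%. Gsx1, a hypothalamus and interneuron gene, had the smallest p, with 66.5 and 68.2% in control and 100, 77.1 and 89.4% with CSF3R T618I. Its difference of 21.5 points ± 11.6 (SE) had an adjusted p of 0.284 by limma. Irx2 read 37.9 and 48.5% against 70, 64.5 and 79.9%, 28.2 points ± 15.4 (SE) with an adjusted p of 0.289 by limma. The groups did not overlap at either gene. Coverage in the 2 controls was already at least 50% at 19 and 23 of the 32 genes, against 11.2 and 15.5% of the tested genes.

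Double cells were also set against control and against the Asxl1 guide. Against control all 32 means lay lower, by a median of 22.6 points, none passed by limma (0% of tested genes; 8 of the 30 and 6.87% of all had an unadjusted p under 0.05), and in 25 of the 32 both double libraries lay below both controls, against 45.2% of tested genes. Evx1 (-64.6 points ± 20.5, SE) and Irx1 (-31.2 ± 11.3) had the smallest p, with adjusted p of 0.662 and 0.687 by limma. Against the guide alone the median difference was -2.16 points, none passed by limma (0% of tested genes; 0 of the 30 and 1.2% of all at an unadjusted p under 0.05), and the groups overlapped at all of the 32 genes but Irx1, which lay lower in double cells (2.15% of tested genes did, and 1.61% lay higher). The interaction of guide and receptor gave no call either by limma, 0% of tested genes (0 of the 30 and 8.37% of all at an unadjusted p under 0.05), with Irx2 at -47.4 points ± 21.8 (SE) and an adjusted p of 0.497 by limma. These comparisons share control, guide or CSF3R T618I libraries with those above.

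H2AK119ub changes were called at the engrailed pair and at Msx1, which entered the test only through 2 libraries of the Asxl1 guide, where it was high. With the Asxl1 guide, En1 rose and En2 fell, 2 of the 22 tested; over the 1595 genes tested, 0.376% were called higher and 17.1% lower. The median difference was -2.3 points over the 32 genes and -10.2 points over all genes tested. Taking all 32, every guide library lay above both controls in 5 (En1, Irx1, Irx6, Msx1 and Alx1) and below both in 7 (En2, Gbx1, Dlx1, Irx5, Evx1, Evx2 and Cdx1). Of these, Irx1, Irx6, Alx1, Gbx1 and Cdx1 were too low in H2AK119ub to be tested. Among the 22 tested, En1 and Msx1 lay above and En2, Dlx1, Irx5, Evx1 and Evx2 below, against 4.76 and 63.5% of tested genes.

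En1 had 11.9 and 23.9% of its region in H2AK119ub peaks in control cells and 62.2, 66.2 and 58.8% with the Asxl1 guide. The difference was 44.5 points ± 7.12 (SE), with an adjusted p of 0.00671 by limma. CSF3R T618I cells read 36.1, 15.2 and 34.2% and double cells 58.7 and 45.2%. All 5 libraries with the guide lay above all 5 without it. Double cells were above control by 34.1 points ± 7.8 (SE), with an adjusted p of 0.0233 by limma, the single call of 22 in that comparison (4.89% of tested genes were called higher and 3.26% lower), and above CSF3R T618I by 23.5 points ± 7.12 (SE), with an adjusted p of 0.0531. The 3 libraries with the guide alone had the lowest H2AK119ub extent over the genome of the 10, so En1 went against the direction of the total there. Of 19 alternatives each, the En1 call with the guide alone was lost in 2 and that of double cells against control in 7. The fit with no filter lost the first, and the 10 kb window and the compared groups alone each lost the second. The call against control was lost without control replicate 1 (38.5 points, adjusted p 0.0613) and kept when any other library was left out; the call in double cells was lost without control replicate 1, control replicate 2 or double replicate 1 (adjusted p 0.172, 0.0653 and 0.108).

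The added H2AK119ub at En1 lay over the gene body and the upstream flank. In control replicate 1 the mark formed 4 short peaks and in replicate 2 it formed 3, whereas with the guide a peak ran along nearly the whole gene of 5.5 kb in each of 3 libraries. The annotated start of En1 lay inside the peak in 1 of these 3 libraries. The H3K27me3 difference at En1 with the guide was -6.34 points ± 14.9 (SE), with an adjusted p of 1 by limma.

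En2, which acts with En1 in cerebellar development, read 71.8 and 60% H2AK119ub in control cells and 44.6, 26.4 and 49.1% with the Asxl1 guide. All guide libraries lay below the controls, and the difference was -25.9 points ± 7.99 (SE), with an adjusted p of 0.0484 by limma. CSF3R T618I libraries read 43.3, 56.1 and 53% and double libraries 52.1 and 33.3%, which overlap with each other and with the guide alone. The call was lost when any 1 of 7 libraries was left out (adjusted p 0.0531 to 0.265), namely each control, each guide library and replicates 2 and 3 of CSF3R T618I, and kept without any of the other 3. It was also lost with covered length as a covariate (-13.7 points, adjusted p 0.317). Of 19 alternatives, the En2 call was lost in 13. The engrailed pair thus differed in direction under the same guide. En2 went with the genes tested, of which 86.9% had a lower mean with the guide (median -10.2 points), and En1 went against them.

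**Figure D5:**
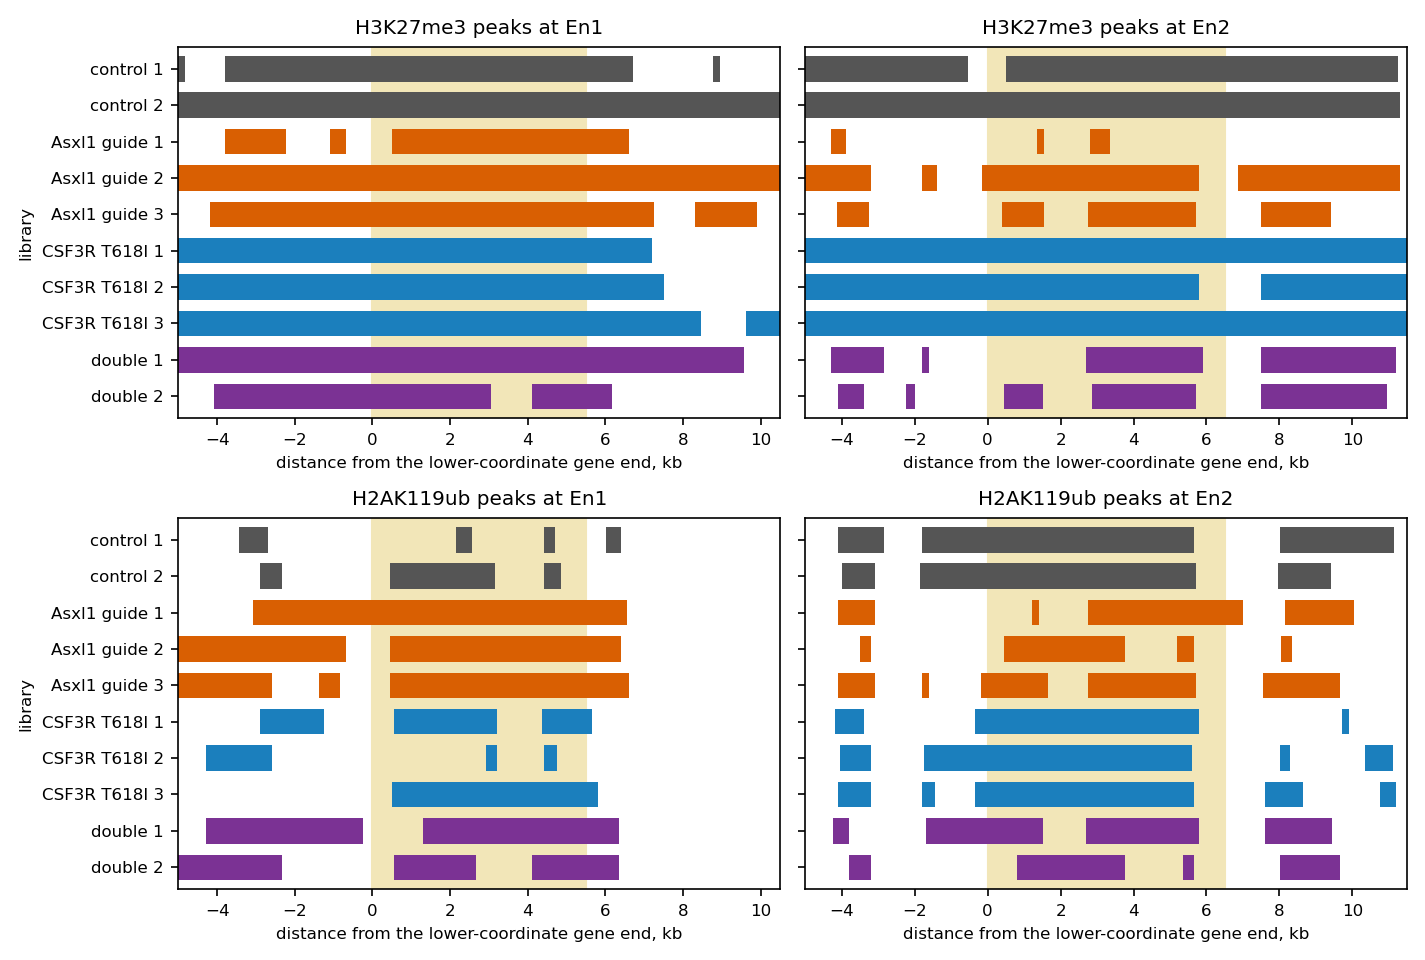
Peaks of H3K27me3 (top) and H2AK119ub (bottom) over En1 (left) and En2 (right), 1 row per library, coloured by genotype, against distance in kb from the end of the gene with the lower coordinate; shading marks the gene. H2AK119ub peaks at En1 are short in the 2 controls (11.9 and 23.9% of the region) and long in the 3 Asxl1 guide libraries (58.8 to 66.2%), while at En2 they are longer in the controls.

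Msx1, like Msx2 a BMP target of tooth and skull, fell in double cells against the Asxl1 guide, the single call of 22 in that comparison; over all genes tested 0.251% were called lower and 11.6% higher. At an unadjusted p under 0.05 there were 4 of the 22, against 30.3%. It read 12.4 and 9.93% in control, 18.1, 26.3 and 24.5% with the guide, 11, 14.9 and 13.8% with CSF3R T618I and 8.51 and 7.8% in double cells. The 3 guide libraries lay above the other 7 and the double libraries below the other 8. The difference between them was -14.8 points ± 4.28 (SE), with an adjusted p of 0.0488 by limma. Msx1 reached the 20% needed for a test in 2 of the guide libraries alone, the group in which it was high, so a difference was built into its being tested; without Asxl1 replicate 2 or 3 it was not tested. The call was kept without CSF3R replicate 1, and without each of the other 7 libraries in turn the adjusted p was 0.0635 to 0.234. H3K27me3 at Msx1 went from 88.6 and 96.7% in control to 24.8, 84.4 and 40.1% with the guide.

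CSF3R T618I alone gave no H2AK119ub call among 22 genes by limma (1 of the 22 and 13% of all genes at an unadjusted p under 0.05), against 0.564% of tested genes called. Evx1 had the smallest p, with 59.8 and 33.9% in control and 4.36, 24.8 and 17.1% with CSF3R T618I. Its difference of -31.4 points ± 8.22 (SE) had an adjusted p of 0.119 by limma. With the guide alone Evx1 read 19.5, 29.5 and 30.2% and in double cells 25.2 and 35.3%. Double against CSF3R T618I gave no call either by limma (2 of the 22 and 32.6% of all genes at an unadjusted p under 0.05), against 4.2% of tested genes called higher and 9.78% lower. The smallest p were those of En1 and of Gbx2, a hindbrain gene at 58.9 and 37% in double cells and 5.3, 22.3 and 29.9% with CSF3R T618I, 28.8 points ± 8.84 (SE) with an adjusted p of 0.0546 by limma. In the interaction none of the 22 passed by limma, against 0.0627% of tested genes, and 4 of the 22 and 11.2% of all had an unadjusted p under 0.05.

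A smaller share of the H2AK119ub-covered bases lay inside H3K27me3 in double cells than in cells without the guide. The share of H2AK119ub-covered bases inside H3K27me3, over all pairs of libraries of a genotype, had a median of 95.4% in control (92.3 to 97.7%) and 97.4% with CSF3R T618I (96.1 to 99.3%). It was 79.5% with the Asxl1 guide (40.1 to 99.5%) and 76.3% in double cells (63 to 83.6%). Double cells did not overlap with either genotype lacking the guide, while the guide alone spanned the range. The pairs reuse the same libraries, so their ranges are not independent spreads. This share also depends on how much of the regions H3K27me3 covered, 239 and 169 kb in double cells and 361 to 384 kb with CSF3R T618I. A change beyond that smaller extent was not tested. In the reverse direction 66% of H3K27me3 bases lay in H2AK119ub in double cells (51.6 to 76.3%) and 41.2% with CSF3R T618I (38 to 47.3%). The same share was 52.1% in control (48.3 to 55.7%) and 60.8% with the Asxl1 guide (39.6 to 82.2%), both overlapping with double cells.

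H3K4me1 was found at 1 of the 32 genes. Dlx2 had a peak of 0.8 kb in replicate 3 of the Asxl1 guide and of 0.95 kb in replicate 3 of CSF3R T618I, and the other 8 libraries had none. None of the 32 reached the level for a test, for which 1372 genes qualified, and in none of the 10 libraries did it lie over any of the 19 given starts.

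Other developmental genes, from lists chosen with earlier results known, gave the following counts in the same fits. Over all genes tested, 17% fell in H3K27me3 for double against CSF3R T618I, with a median difference of -19.7 points. With the guide against control, 0% were called in H3K27me3, and in H2AK119ub 17.1% fell and 0.376% rose. For double against CSF3R T618I in H3K27me3, 18 of 33 tested Hox genes fell and none rose, with a median of -48.4 points. Hoxb9 went from 100% ± 0 (SD, n = 3) to 26% ± 3.01 (SD, n = 2) and Hoxc9 from 99.8% ± 0.395 to 28.1% ± 6.09. Of the Pax, sine oculis, LIM and Nkx genes 5 of 36 fell, with a median of -28 points, among them Nkx6-2, a spinal cord gene, at 35.9% ± 5.29 and 0% ± 0. Of the patterning signals 2 of 14 fell, Fgf4 (-48.9 points) and Wnt8b (-31.1 points), and of the Polycomb genes themselves 1 of 3, Pcgf1 (-23.4 points). For the Asxl1 guide against control in H3K27me3 all 4 lists gave 0 calls. In H2AK119ub the guide lowered 1 of 22 Hox genes, Hoxd8 (-24.3 points), and 3 of 25 Pax, sine oculis, LIM and Nkx genes, among them Six5 (-38.4 points) and Lhx1 (-20.6 points), and raised none, so that En1 was the 1 gene called higher in these lists and the 32 together. In this H2AK119ub comparison of the guide against control, no patterning signal or Polycomb gene was called.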

How the data were processed

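CUT&Tag peaks of 3 marks were analysed in 30 libraries, with 1 peak list from 2 merged IgG libraries as background. Per the submitters' processing notes, the authors used Bowtie2 2.4.1, deepTools 3.5 and the mm10 build. The caller of the peaks is not given in the sources used here. What the authors deposited is a unit other than counts, namely peak positions in bp, at least 200 bp wide and in steps of 50 bp, called per library. A longer list can follow from deeper sequencing.

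The covered percent of each gene plus 5 kb per side was computed for 21887 protein-coding genes (RefSeq, GRCm38.p6) and fitted with limma 3.58.1 (R 4.3.3) on the covered fraction, 1 mean per genotype over the mark's 10 libraries, for genes at 20% or more in at least 2 libraries. Tests were 2-sided with Benjamini-Hochberg adjustment within mark and comparison, called at 0.05. Python 3.11.15 with pandas 2.3.3 and numpy 2.4.6 did the rest.

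Values per library were printed for members called in a comparison, otherwise for up to 2 with the smallest p, and for the 2 highest and 2 lowest means per mark. Members and lists were chosen with earlier results of these data known. Alternatives were other filters, a 10 kb start window, peaks of at least 500 bp, IgG regions removed, an arcsine scale, covered length as covariate, a replicate block and leaving out each library. Fits on the compared groups alone, the covariate joined with leaving out a library, and counts of non-overlapping groups were chosen after seeing the data.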

Additional observations from a re-analysis of the deposited data

Results flagged for a closer look

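H2AK119ub at Msx1 lay higher with the guide in cells without CSF3R T618I and lower in cells with it. Every guide library lay above the controls, and both double libraries lay below those with CSF3R T618I. Msx1 reached the level needed for a test only through 2 of the guide libraries, where it was high. The difference of the 2 effects was -16.8 points ± 6.05 (SE), with an adjusted p of 0.355 by limma, which did not pass.

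H2AK119ub at Evx1 lay the other way round. The guide libraries lay below both controls, and both double libraries lay above those with CSF3R T618I, the difference of the 2 effects being 35.2 points ± 11.6 (SE) with an adjusted p of 0.305 by limma. Neither interaction passed the threshold over the 1595 genes tested.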

How the results depend on the processing

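No result changed direction under any alternative. Counts of the 32 genes called moved as follows. In H3K27me3, double against CSF3R T618I had 4 calls, 2 at the 10% filter, 0 with no filter, 8 with the 10 kb window, 12 with covered length as covariate (8 with Asxl1 replicate 2 also left out), 26 on the compared groups alone and 0 to 21 leaving out 1 library; Asxl1 guide against control 9 with the covariate, 2 with both and 0 to 18; CSF3R T618I against control 2 on the compared groups and 0 to 3; double against control 13 with the covariate, 12 with both, 1 on the compared groups and 0 to 9; double against the guide 0 to 1; the interaction 2 with the covariate and 1 with both. In H2AK119ub, the guide against control had 2 calls, 1 at the 10% filter, 0 with no filter, 1 with peaks of at least 500 bp, 1 with the covariate, 4 on the compared groups and 0 to 3 leaving out 1 library; CSF3R T618I against control 1 with the covariate; double against CSF3R T618I 1 with no filter, 4 with the covariate and 0 to 1; double against the guide 0 with peaks of at least 500 bp, 2 on the arcsine scale, 0 with the covariate, 0 on the compared groups and 0 to 2; double against control 0 with the 10 kb window, 7 with the covariate, 0 on the compared groups and 0 to 1. Of all genes tested in H3K27me3, the share called lower was, for double against control, 11.2% with the covariate, 11.2% with both, 0.956% on the compared groups and 7.67% without Asxl1 replicate 2, which gave the 9; for double against CSF3R T618I, 13.1% at the 10% filter, 5.59% with no filter, 23.6% with the 10 kb window, 35.6% with the covariate, 20.9% with both, 74.1% on the compared groups and 0 to 79.6% leaving out 1 library; and for the guide against control, 7.11% with the covariate, 1.22% with both and 26.6% without Asxl1 replicate 2. For CSF3R T618I against control the share called higher was 31.6% on the compared groups and 38.7% without Asxl1 replicate 2. In H2AK119ub, 36.7% were called lower and 1.19% higher for the guide against control on the compared groups, and with the covariate 18.9 and 5.02% for double against control and 34.2 and 6.52% for double against CSF3R T618I. The members called in these 3 were 2 lower and 2 higher, 6 and 1, and 2 and 2. For the other settings, such as the interaction with the covariate, no share over all genes tested is given. Those counts can therefore not be set against it. The cause of these shifts was not tested, and with 2 double and 2 control libraries a group left with 1 is assumed to vary like the others.

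Deviations of same-numbered libraries correlated between -0.35 and 0.21 in H3K27me3, where 3 of 13 pairs exceeded 0.1, between -0.12 and 0.08 in H2AK119ub, where 0 of 13 did, and between -0.09 and 0.48 in H3K4me1, where 9 of 13 did. In no mark did every pair exceed 0.1, so the numbers were not taken to pair the samples. This rule is strict, and most H3K4me1 pairs exceeded 0.1, a mark in which none of the 32 genes was tested. Control and double cells had 2 libraries each, whose deviations mirror each other, so the pairs are not independent. With the number as a block, 0 of the 32 genes were called in H3K27me3 for double against CSF3R T618I, against 1.08% of genes tested called lower. In H2AK119ub 1 of the 32 was called for the guide against control, and 0 for double against the guide and against control. No share over all genes tested is given for these H2AK119ub counts. Depth is unknown, so no floor can be set for regions without a peak.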
